A study of Mus musculus with 4 samples.

Results

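The interferon regulatory factors (IRFs) were read on 4 mouse microarrays through 14 of the 22690 probe sets, which the platform annotation assigns to Irf1, Irf2, Irf3, Irf4, Irf5, Irf7, Irf8 or Irf9 alone. These 8 genes are among 12393 that could be named. A probe set is a group of short probes read together as 1 value. Irf3 had 4 probe sets, Irf4, Irf5 and Irf8 had 2 each, and the remaining 4 members had 1 each.

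IRFs are transcription factors that share a DNA-binding domain with conserved tryptophans and bind repeats of GAAA, the core of the interferon-stimulated response element (ISRE). Irf8, together with the ETS factor PU.1, directs progenitors towards monocytes and dendritic cells and restrains neutrophil formation, while Irf5 drives inflammatory cytokine genes in monocytes and macrophages. Irf3 is made constitutively and switched on by phosphorylation, whereas Irf7, Irf9 and Irf1 are themselves induced by interferon, and Irf2 competes with Irf1 for the same sites.

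Each array carried RNA of 1 sorted bone marrow population from untreated C57BL/6 mice aged 8 weeks, backcrossed for 10 generations or more. All mice carried green fluorescent protein (GFP) knocked into Gfi1, the gene of a transcriptional repressor: on both copies in GFP:Gfi1 KI/KI mice, which lack Gfi1, and on 1 copy in GFP:Gfi1 KI/WT mice. None of the 4 populations carried 2 intact Gfi1 copies. CD11b+, Gr1-low cells came from KI/KI mice (called KI/KI monocytes here) and from KI/WT mice as GFP-high and GFP-low fractions. CD11b+, Gr1-high granulocytes came from KI/WT mice. The labels name no GFP gate for the KI/KI monocytes or the granulocytes, and do not say how many mice each array represents.

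With 1 array per population no test could be made and nothing below has a replicate check. Values are log2, array medians ran from 5.91 to 6.01, and the 40th percentile of all values, 5.18, served as the floor for a readable signal. Gfi1 itself read 10.31 in GFP-high cells, 7.31 in granulocytes, 5.18 (just under the floor) in KI/KI and 3.74 in GFP-low monocytes. Whether its probes lie in the replaced part of the gene is not known here. The 6 monocyte markers with a probe set had medians of 12.47 and 12.61 in KI/KI and GFP-low monocytes, 8.58 in granulocytes and 7.64 in GFP-high cells. The 11 granulocyte markers had medians of 10.36, 9.69, 13.59 and 13.66 in that order. The monocyte label of the GFP-high array is therefore not borne out by these markers, and its cells are called GFP-high Gr1-low cells here. The KI/KI array also stood apart in sex-linked transcripts, with Xist at 5.80 against 9.56 to 10.93 elsewhere and the Y-linked Eif2s3y at 8.31 and below the floor elsewhere. No IRF member analysed lies on the X or Y chromosome.

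Upstream sequences are shown for 4 members: Irf8 and Irf7, which carry the 2 main patterns below, and Irf1 and Irf2, whose start regions held matches to the motifs searched. They come from RefSeq, build GRCm38.p6, and run 5′ to 3′ up to the base before the outermost start of the gene. Capitals mark matches on either strand to GAAANNGAAA (ISRE core), TTCNNNGAA (GAS, the element bound by STAT dimers) or GGAANNGAAA (a composite ETS-IRF site). The Irf8 stretch is chr8:120736108-120736357 (plus strand), Irf7 is chr7:141266500-141266674 (minus strand), Irf1 is chr11:53769764-53770013 (plus strand) and Irf2 is chr8:46739495-46739744 (plus strand).
Irf8: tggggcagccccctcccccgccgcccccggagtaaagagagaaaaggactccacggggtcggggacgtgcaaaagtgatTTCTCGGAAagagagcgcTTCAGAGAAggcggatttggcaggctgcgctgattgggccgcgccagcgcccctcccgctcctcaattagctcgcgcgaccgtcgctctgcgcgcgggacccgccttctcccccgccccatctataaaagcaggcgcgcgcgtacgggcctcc
Irf7: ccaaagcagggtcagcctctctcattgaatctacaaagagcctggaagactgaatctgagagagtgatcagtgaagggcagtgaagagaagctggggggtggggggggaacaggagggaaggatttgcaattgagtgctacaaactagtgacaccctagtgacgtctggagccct
Irf1: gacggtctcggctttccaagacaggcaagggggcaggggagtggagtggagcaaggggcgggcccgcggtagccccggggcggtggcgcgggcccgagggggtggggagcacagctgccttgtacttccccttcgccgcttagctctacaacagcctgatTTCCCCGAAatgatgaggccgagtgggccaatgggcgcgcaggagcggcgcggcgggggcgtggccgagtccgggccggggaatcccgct
Irf2: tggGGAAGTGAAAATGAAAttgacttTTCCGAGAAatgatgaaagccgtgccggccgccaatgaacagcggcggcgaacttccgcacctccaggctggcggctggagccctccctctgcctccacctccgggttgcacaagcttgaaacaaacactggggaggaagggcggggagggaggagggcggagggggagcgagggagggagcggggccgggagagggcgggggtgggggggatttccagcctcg

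Irf8 holds 2 GAS matches, TTCTCGGAA and TTCAGAGAA, starting at positions -171 and -153, counted back from the start site. Irf1 holds 1 GAS match, TTCCCCGAA, starting at -90. Irf2 holds an ETS-IRF match starting at -247, an ISRE core match at -241 that overlaps it, and a GAS match at -224. Windows of 300 bases, from 250 before to 50 after a start, were searched for all 8 members. No match to these letters was found in the windows of Irf3, Irf4, Irf5, Irf7 or Irf9. The Irf5 window began downstream of the gene's outermost start, so the bases upstream of that start were not searched. The Irf7 window held 175 bases upstream of its outermost start. Of 32851 such windows of 27025 genes, 3.44% held the ISRE core, 8.30% GAS and 2.72% the ETS-IRF letters. A match is a description of letters and was not tested as a binding site.

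Irf8 split the populations into a high and a low pair. Its probe set read 10.80 in KI/KI and 10.80 in GFP-low monocytes, 7.23 in granulocytes and 7.09 in GFP-high Gr1-low cells. The other Irf8 probe set read 10.88, 10.78, 7.32 and 6.90 in the same order, so both gave the same division. Irf8 was 13.1-fold lower in GFP-high than in GFP-low cells and 11.9-fold lower in granulocytes than in GFP-low monocytes. In the first probe set the gap within each pair, 0.004 and 0.14, was smaller than the scatter between probe sets of 1 gene. That scatter is the SD between the log2 differences of a gene's probe sets and was 0.16 to 0.38, depending on the comparison, over 2584 genes. It measures disagreement of probe sets within these arrays, not variation between animals. In the other Irf8 probe set the gap was 0.10 in the high pair. In its low pair the gap was 0.42, beyond the scatter of 0.32 for that comparison.

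Irf5 had the widest range of the 8 members. Its brighter probe set read 10.91 in GFP-low and 10.71 in KI/KI monocytes, 8.00 in granulocytes and 6.04 in GFP-high Gr1-low cells. It also separated the low pair further than either Irf8 probe set did: granulocytes lay 3.90-fold above GFP-high cells. It was 29.4-fold lower in GFP-high than in GFP-low cells, the 23rd largest difference of 8232 measured genes, where Irf8 ranked 110th. The dimmer Irf5 probe set was nearly flat, at 6.28 in KI/KI monocytes, 6.01 in GFP-high cells, 6.19 in GFP-low monocytes and 6.13 in granulocytes. Its GFP-high minus GFP-low difference was -0.17, so every Irf5 difference of 2-fold or more given here rests on the brighter probe set.

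Irf4, which acts in B cells, plasma cells and some dendritic cells, was the only member below the floor on an array in its brighter probe set. It read 7.06 in GFP-low monocytes, 5.99 in KI/KI monocytes, 5.85 in granulocytes and 4.24, below the floor, in GFP-high Gr1-low cells. GFP-low monocytes were therefore at least 3.69-fold above GFP-high cells and 2.10-fold above KI/KI monocytes. The other Irf4 probe set was below the floor on all 4 arrays, from 4.31 to 5.04. With the mean of both probe sets, GFP-high minus GFP-low was -0.87 and KI/KI minus GFP-low -0.63, each under 2-fold.

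**Figure D1:**
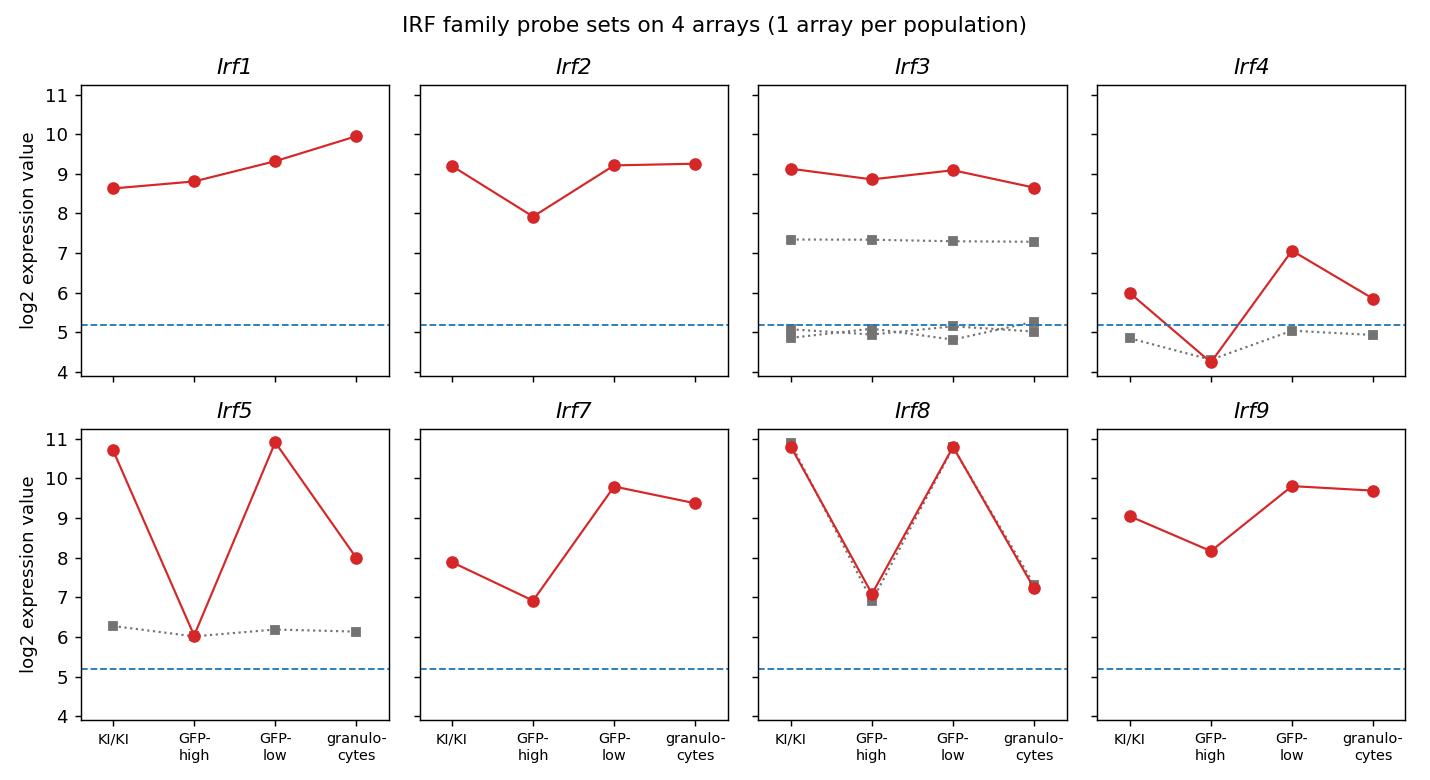
Log2 expression values (vertical axis) of all 14 IRF probe sets on the 4 arrays (horizontal axis), 1 panel per gene. Red circles mark the probe set that represents the gene, grey squares its other probe sets, the dashed blue line the floor of 5.18, and joining lines only connect values of 1 probe set. Both Irf8 probe sets are near 10.8 in KI/KI and GFP-low monocytes and near 7 in the other populations, while the 2 Irf5 probe sets differ in shape.

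Several markers of other cell types moved with Irf4, and others did not. Of 8 dendritic cell genes measured in the comparison of KI/KI with GFP-low monocytes, 5 were at least 2-fold lower and 0 higher. Their median was -1.87. Of all 8010 genes measured there, 1.27% were lower and 0.637% higher, with a median of 0.03. Cd74, the MHC class II invariant chain, read 11.30 in GFP-low and 9.49 in KI/KI monocytes, 9.58 in granulocytes and 7.38 in GFP-high cells. Cd209a, a lectin gene of dendritic cells derived from monocytes, read 8.14, 6.13, 5.97 and 4.99 in the same order. Over the 10 dendritic cell genes with a probe set, 8 were above the floor in GFP-low monocytes, 8 in granulocytes, 5 in KI/KI monocytes and 4 in GFP-high cells. The defining genes Zbtb46 and Xcr1 were below the floor on all 4 arrays. Itgax did not have the order of Irf4, being highest in granulocytes at 6.7 against 5.8 in GFP-low monocytes. Flt3 varied little, from 7.50 to 8.03.

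Of the 7 plasma cell genes with a probe set, 4 were above the floor in GFP-low monocytes, 3 in KI/KI monocytes, 4 in GFP-high cells and 5 in granulocytes. Igha, the immunoglobulin A heavy chain, read 10.61 in GFP-low monocytes and 7.33 in KI/KI monocytes, and Jchain, which joins immunoglobulin chains, read 8.18 and 6.49. These were the 2 of 4 measured plasma cell genes that were lower by 2-fold, against 1.27% of all genes. None was higher, against 0.637%. Prdm1 was above the floor in GFP-low monocytes alone, at 5.23. Other genes of the list did not have the order of Irf4: Xbp1 read 11.76 in KI/KI and 11.62 in GFP-low monocytes, Sdc1 was highest in GFP-high cells at 5.67 and Pou2af1 in granulocytes at 6.67. Of the 7 B cell genes with a probe set, Cd79a, Cd79b and Vpreb3 were above the floor on all 4 arrays, Ms4a1 in granulocytes alone, and Pax5, Ebf1 and Blk on none. Cd79a read 7.47 in granulocytes, 6.31 in GFP-low monocytes, 5.74 in GFP-high cells and 5.36 in KI/KI monocytes. KI/KI minus GFP-low was -0.95 for Cd79a, -0.89 for Cd79b and -0.14 for Vpreb3, all under 2-fold. The part of these cells in the Irf4 values was not tested. In sorted but mixed cells, fewer cells of a type and less RNA per cell cannot be told apart.

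**Figure D2:**
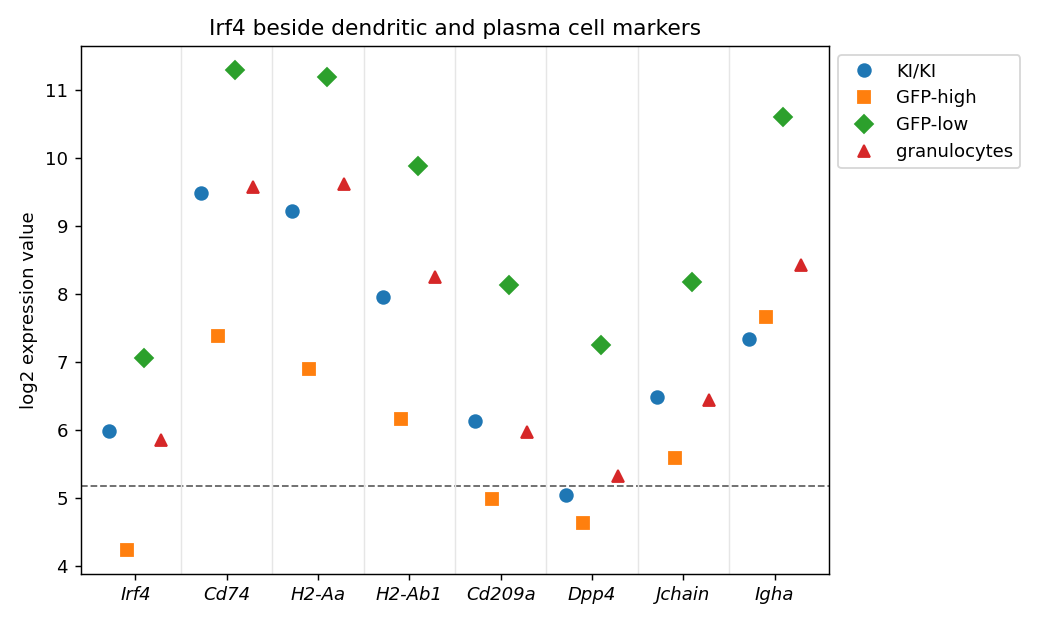
Log2 expression values (vertical axis) of Irf4 beside 5 dendritic cell genes (Cd74, H2-Aa, H2-Ab1, Cd209a, Dpp4) and 2 plasma cell genes (Jchain, Igha), with 1 symbol per population and the dashed line at the floor of 5.18. These genes were picked from their lists after their values were seen, and in each of the 8 genes shown the GFP-low value is the highest.

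Irf7, which controls type I interferon production and is itself strongly induced by interferon, followed another order than Irf8. It read 9.80 in GFP-low monocytes, 9.37 in granulocytes, 7.89 in KI/KI monocytes and 6.92 in GFP-high Gr1-low cells. Granulocytes, low in Irf8, were thus within 2-fold of GFP-low monocytes in Irf7, the gap of 0.42 being beyond the scatter of 0.34 between probe sets. The KI/KI monocytes, high in Irf8, were 3.76-fold below GFP-low monocytes. That difference of -1.91 ranked 46th in size among 8010 genes. GFP-high cells were 7.37-fold below GFP-low monocytes and 5.49-fold below granulocytes. Plasmacytoid dendritic cells, known for high Irf7, are another possible content of the gates. Of 6 of their marker genes with a probe set, 4 were above the floor in GFP-low monocytes, 4 in granulocytes, 3 in KI/KI monocytes and 3 in GFP-high cells, and Ccr9 and Klk1 were below it on all 4 arrays. Bst2, which is also interferon-induced, read 8.31 in GFP-low monocytes, 7.24 in KI/KI monocytes, 6.32 in granulocytes and 5.91 in GFP-high cells. It was the 1 of 4 measured genes lower by 2-fold in KI/KI than GFP-low monocytes, against 1.27% of all genes. Ly6d was at -0.45 there, Tcf4 at -0.38 and Cox6a2 at -0.09. In granulocytes minus GFP-low monocytes Bst2 and Tcf4 were each at -1.99, Cox6a2 at 0.85 and Ly6d at 1.08. The part of these cells in the Irf7 values was not tested.

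Irf9, the DNA-binding subunit of the interferon-activated complex ISGF3, had the same order over a narrower range. It read 9.81 in GFP-low monocytes, 9.69 in granulocytes, 9.05 in KI/KI monocytes and 8.17 in GFP-high cells. The first pair differed by less than the scatter between probe sets. KI/KI monocytes were 1.70-fold below GFP-low monocytes, under the 2-fold rule, and GFP-high cells 3.12-fold below. Stat2, the partner of Irf9 in ISGF3, read 7.57 in GFP-low monocytes, 6.87 in granulocytes, 6.53 in KI/KI monocytes and 6.00 in GFP-high cells.

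Irf1, an activator induced by interferon gamma, was highest in granulocytes. It read 9.95 there, 9.32 in GFP-low monocytes, 8.81 in GFP-high cells and 8.63 in KI/KI monocytes. Granulocytes were 2.50-fold above KI/KI monocytes and 2.21-fold above GFP-high cells. The KI/KI and GFP-high values differed by less than the scatter between probe sets.

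Irf2, the repressor that competes with Irf1, set 1 population apart. It read 9.26 in granulocytes, 9.21 in GFP-low and 9.20 in KI/KI monocytes, but 7.92 in GFP-high cells, 2.45-fold below GFP-low monocytes. The 3 higher values differed by less than the scatter between probe sets. The name of its probe set carries the suffix that marks probes shared between transcripts, so signal from another transcript cannot be told apart.

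Irf3, the constitutive member, differed by under 2-fold in every comparison. Its brightest probe set read 9.13 in KI/KI and 9.09 in GFP-low monocytes, 8.86 in GFP-high cells and 8.65 in granulocytes. Each step from 1 population to the next in that order was within the scatter between probe sets. Granulocytes were at -0.48 against KI/KI and -0.44 against GFP-low monocytes, beyond the scatter of 0.38 and 0.34 in those comparisons. The name of the brightest Irf3 probe set carries the suffix that marks probes which may also bind other transcripts. A further probe set was flat, from 7.29 to 7.34. The remaining 2 were at or below the floor except for 1 value of 5.27 in granulocytes.

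**Figure D3:**
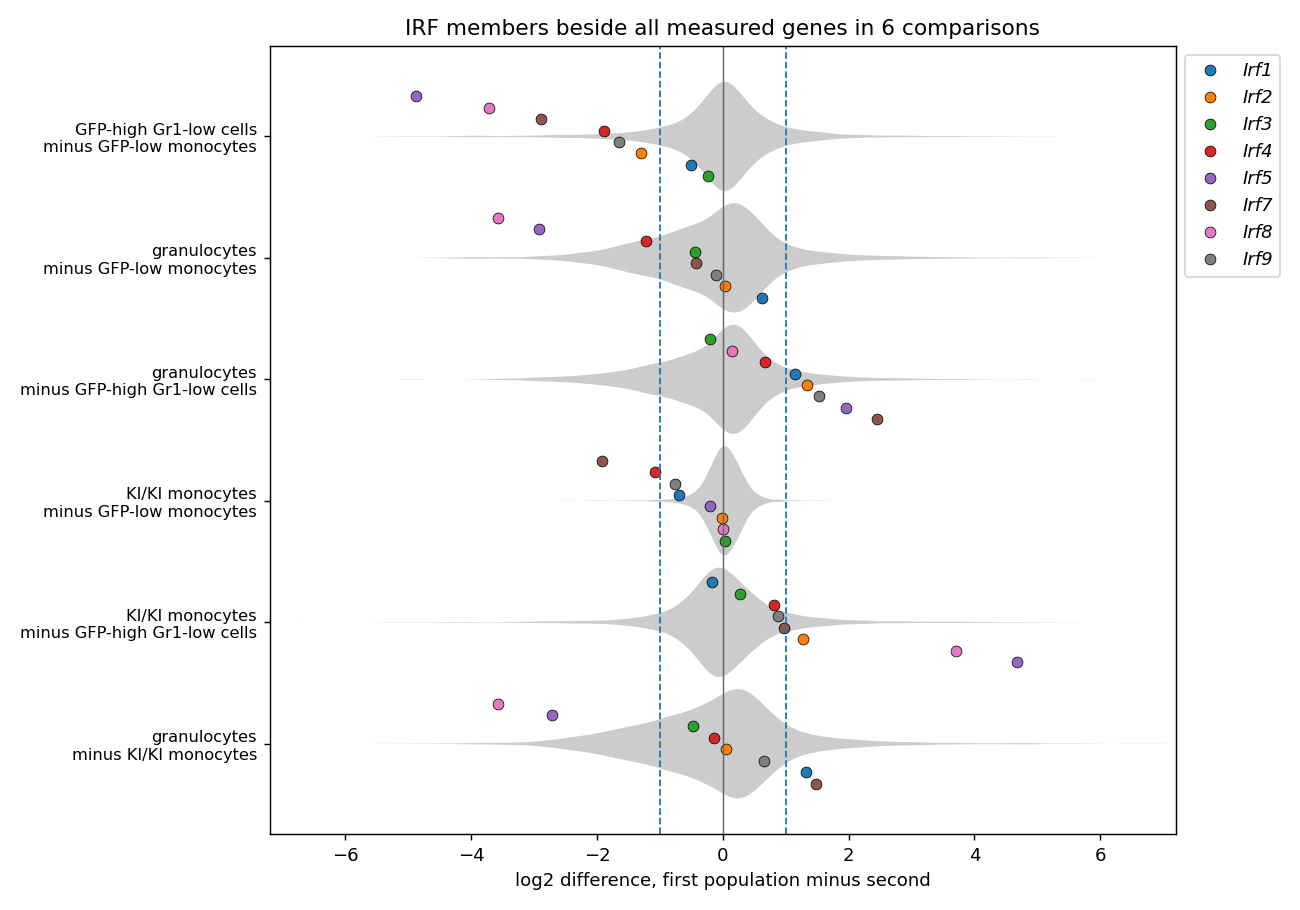
Log2 differences (horizontal axis) in 6 comparisons of 2 arrays each (vertical axis), with coloured points for the 8 IRF members, grey shapes for all measured genes and dashed lines at 2-fold. Points are spread vertically only to keep them apart, and Irf4 differences with GFP-high cells are bounds. In the first comparison 6 members lie left of the lower dashed line and in the third 5 lie right of the upper one.

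Counted by comparison, the members were mostly lower in GFP-high Gr1-low cells than in GFP-low monocytes: 6 of 8 lay 2-fold or more below, against 9.61% of the 8232 genes measured there, and 0 were higher, against 9.03%. Their median log2 difference was -1.76, and that of all genes 0.03. Irf1 at -0.51 and Irf3 at -0.23 were under 2-fold. Other cell types moved with this comparison: 4 of 7 measured macrophage genes were higher in GFP-high cells and 1 lower, and the eosinophil peroxidase gene Epx read 10.18 there and below the floor in GFP-low monocytes. Their part in the IRF values was not tested. Granulocytes compared with GFP-low monocytes had 3 of 8 members lower, Irf8, Irf5 and Irf4, against 18.2% of 8503 genes, and 0 higher, against 10.0%. The member median was -0.43 beside 0.00 for all genes. Between granulocytes and GFP-high cells, 5 of 8 were higher in granulocytes, Irf7, Irf5, Irf9, Irf2 and Irf1, against 8.93% of 8457 genes, and 0 lower, against 16.4%. The median was 1.24 beside 0.03.

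Compared with GFP-low monocytes, KI/KI monocytes had 2 of 8 members at least 2-fold lower, Irf7 and Irf4, against 1.27% of 8010 genes, and 0 higher, against 0.637%. The median was -0.45 beside 0.03. Irf9 at -0.76 and Irf1 at -0.69 were the next lowest, and Irf8, Irf2 and Irf3 were within 0.04 of no difference. Genotype, GFP gate and the sex-linked transcripts given above differ together here and cannot be told apart. Granulocyte genes also moved: 5 of 11 were lower in KI/KI monocytes, Camp at -5.04, Ltf at -4.82, Ngp at -3.52, Mmp9 at -2.52 and S100a9 at -1.28, and 4 higher, Mpo at 3.34, Ctsg at 2.47, Elane at 2.44 and Prtn3 at 2.28. The eosinophil genes Prg2 at 3.01, Epx at 2.93 or more and Prg3 at 1.52 were higher too. The part of these cells in the IRF values was not tested. Against GFP-high cells, 3 of 8 were higher in KI/KI monocytes, Irf5, Irf8 and Irf2, against 9.53% of 8195 genes, and 0 lower, against 7.81%. Irf5 was 25.6-fold and Irf8 13.1-fold higher, and Irf7 at 0.97 just missed 2-fold. Granulocytes compared with KI/KI monocytes had Irf7 and Irf1 higher, 2 of 8 against 11.2% of 8520 genes, and Irf8 and Irf5 lower, 2 of 8 against 20.3%. The 6 comparisons share arrays, so their counts are not independent of each other.

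Genes of the interferon pathway were read beside the members, against the shares and medians of all genes given above. Of 11 measured genes (12 listed) for interferon receptors and Jak-Stat signalling, 7 were lower by 2-fold or more in GFP-high than in GFP-low cells and 0 higher (median -1.14). They included all 4 receptor chains, Ifngr2 with the largest difference at -1.94, Ifngr1 at -1.14, Ifnar1 at -1.30 and Ifnar2 at -1.06. Between KI/KI and GFP-low monocytes, 1 of 10 was lower, Stat2 at -1.04, and 1 higher, the feedback inhibitor Socs3 at 1.10 (median -0.15). The receptor chains lay between -0.36 and 0.03 there.

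Sensors and adaptors that activate Irf3, Irf5 and Irf7 were read in the same way. Of 11 measured (18 listed), 3 were lower in GFP-high than in GFP-low cells, against 9.61% of all genes (median -0.28). The 1 higher gene was near the share of 9.03% for all genes. The lower ones were the mitochondrial adaptor Mavs at -2.54, the RNA receptor Tlr7 at -2.43 and the RNA sensor Ifih1 at -1.36, and the higher one was the kinase gene Ikbke at 1.14. Tbk1, the kinase that phosphorylates Irf3, ranged from 9.30 to 9.55 over the 4 arrays, and Myd88, the adaptor of most Toll-like receptors, from 9.42 to 10.30. In KI/KI compared with GFP-low monocytes, 1 of 11 was lower, Ifih1 at -1.18, and 0 were higher (median 0.05). Tlr7 is X-linked and read -0.36 there.

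Interferon-stimulated genes with ISRE-type control were lower in KI/KI than in GFP-low monocytes in 14 of 17 measured (20 listed), and higher in 0 (median -1.91). Granulocyte genes went both ways in the same comparison, by the values given above. Of 11, 5 were lower (Camp, Ltf, Ngp, Mmp9 and S100a9) and 4 higher (Mpo, Ctsg, Elane and Prtn3). The part of these cells in the interferon-stimulated genes was not tested. In GFP-high cells 13 of 17 were lower than in GFP-low monocytes and 0 higher (median -1.89). In granulocytes 5 of 17 were higher than in GFP-low monocytes and 3 lower (median 0.21), and 13 of 17 were higher than in KI/KI monocytes and 1 lower (median 2.62). Rtp4, an interferon-induced chaperone, read 10.83 in granulocytes, 9.48 in GFP-low monocytes, 6.99 in KI/KI monocytes and 6.36 in GFP-high cells. Dhx58, a regulator of RNA sensing, read 8.57, 8.70, 7.72 and 6.74 in the same order, closer to the shape of Irf9 than to that of Irf7. Genes of the type driven by interferon gamma and Irf1 were lower in KI/KI than in GFP-low monocytes for 3 of 13 measured (18 listed) and higher for 0 (median -0.36). These 3 were the chemokine gene Cxcl10 at -2.36 and the GTPase genes Irgm1 at -1.34 and Igtp at -1.04. In GFP-high cells 8 of 14 measured were lower than in GFP-low monocytes and 0 higher (median -1.11), with Gbp3 lowest at -3.08. The immunoproteasome gene Psmb9 lay between -0.24 and 0.23 in all 6 comparisons, but Psmb10 ran from -2.28 to 1.74. Psmb8 was at -1.12 in GFP-high minus GFP-low cells and at -1.07 in granulocytes minus GFP-low monocytes.

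**Figure D4:**
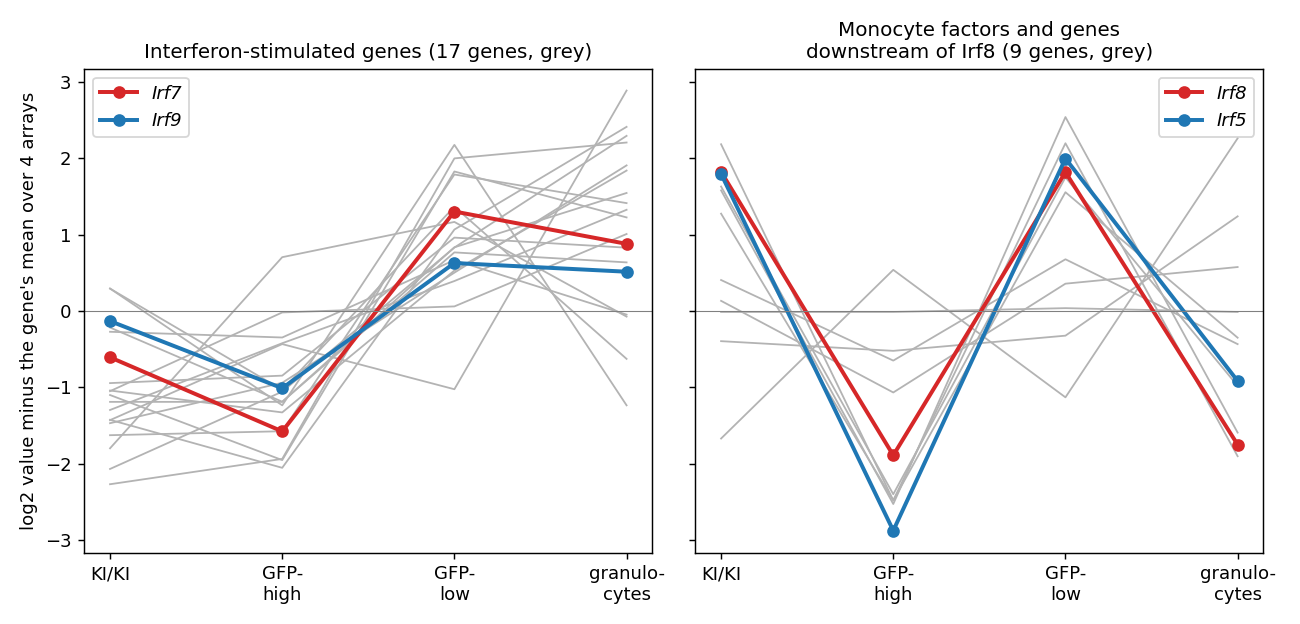
Log2 values minus each gene's mean over the 4 arrays (vertical axis) on the 4 arrays (horizontal axis), after raising values below 5.18 to that floor. Left, Irf7 and Irf9 with 17 interferon-stimulated genes in grey; right, Irf8 and Irf5 with 9 monocyte factors and genes downstream of Irf8 in grey. Irf7 and Irf9 are above their means in GFP-low monocytes and granulocytes, and Irf8 and Irf5 in KI/KI and GFP-low monocytes.

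Monocyte factors and genes described as downstream of Irf8 were lower in GFP-high than in GFP-low cells in 6 of 9 measured (11 listed), and higher in 1 (median -1.43). Of all genes measured there, 9.61% were lower and 9.03% higher. Klf4, a monocyte transcription factor, read 11.36 in KI/KI and 11.38 in GFP-low monocytes, 7.28 in granulocytes and 6.70 in GFP-high cells. Cx3cr1, a chemokine receptor gene, read 9.82, 10.78, 6.64 and 5.71 in that order, and Ctss, the cathepsin S gene, 13.01, 13.13, 10.40 and 8.98. All 3 were higher in the high pair of Irf8 than in its low pair, but other genes of the list were not. In granulocytes, 5 of 9 were lower than in GFP-low monocytes, against 18.2% of all genes. Another 2 were higher, Egr1 at 3.4 and Bcl6 at 1.56, against 10.0%. Cebpb was at 0.22 there. Within the low pair, granulocytes lay above GFP-high cells by 1.42 for Ctss, 0.94 for Cx3cr1 and 0.58 for Klf4. The 2 Irf8 probe sets gave 0.14 and 0.42. Between KI/KI and GFP-low monocytes 0 of 9 reached 2-fold in either direction (median -0.23). Spi1, which encodes PU.1, the partner of Irf8 and Irf4 on DNA, read 10.85 in KI/KI and 10.85 in GFP-low monocytes, 10.99 in GFP-high cells and 11.62 in granulocytes. Its values differed by under 2-fold. Of the 10 partner genes measured, 2 were lower in GFP-high than in GFP-low cells, the AP-1 genes Junb at -2.50 and Jun at -1.22. The share of all genes lower was 9.61%. Ets2, at 1.25, was the 1 higher partner gene, near the share of 9.03% for all genes (partner median -0.33).

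The genes with the most similar shape over the 4 arrays were searched for each member with a range of 2-fold or more, by the root mean square difference after raising values below the floor to it and centring each gene on its mean. For Irf8 they were Nupr1 (0.06), Rnase4 (0.10), Plxnb2 (0.12), Rnd3 (0.15) and Dusp22 (0.16). Nupr1 and Rnd3 were below the floor in granulocytes and GFP-high cells, so their distances rest on the floor. For Irf5 they were Atf3 (0.07), Ccl3 (0.28), Ctss (0.28), Thbd (0.30) and Gpr35 (0.34), the last 2 being below the floor in GFP-high cells. The genes nearest to Irf7 were farther from it than the nearest gene of each other member: H2-Eb1 (0.30), Gdap10 (0.36), Trim30a (0.37), Dhx58 (0.40) and Trim30d (0.41). For Irf9 they were Bbc3 (0.11), Arhgap31 (0.12), Tdrd7 (0.13), Dhx58 (0.14) and N4bp2l1 (0.14), with Arhgap31 below the floor in GFP-high cells. Dhx58 was the gene shared by the Irf7 and Irf9 lists.

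For Irf4, whose value in GFP-high cells is a bound, no nearest genes are given. For Irf2 they were Snx10 (0.04), Rgs2 (0.04), Sat1 (0.04), Zfp106 (0.05) and Cask (0.07), and for Irf1 Kmt2c (0.06), Klf1 (0.08), Cd7 (0.09), Trim10 (0.10) and Rhd (0.10), with Cd7 below the floor in KI/KI monocytes. Within the family, Irf8 and Irf5 lay 0.65 apart and Irf7 and Irf9 0.53, whereas Irf8 and Irf7 lay 1.82 apart. Irf9 was nearer to Irf2 (0.28), Irf4 (0.41, resting on a bound) and Irf1 (0.47) than to Irf7. With 4 points per gene these distances describe the arrays only.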

How the data were processed

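Per the labels' protocols, biotin-labelled cRNA was prepared for Affymetrix arrays from 6 µg of TRIzol-extracted total RNA. The authors deposited 1 log2 value per probe set and array, the scale being read from the range (2.70 to 14.50). How these log2 values were made by the authors before deposit (background, summary and normalization method, log base) is not stated in the labels. They were used without further scaling, so a shift common to most genes would not be seen, and the number of arrays limits the precision.

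Probe sets were named from the platform annotation, which can be old, with symbols updated by gene identifier (20364 of 20393 with 1 gene matched). Those with several genes (691) named none. Of several probe sets of a gene, that of highest mean stood for it. Values below the floor were set to it, a difference with 1 side there is a bound, and a difference counted at 1 or more (2-fold). Differences were computed with Python 3.11.15, numpy 2.4.6 and pandas 2.3.3, and the code was tested on simulated data. Genes measured in a comparison were above the floor on either array. All members were named, with the ends of each pathway list or genes whose role bears on a member, the latter chosen after values were seen. The members and lists were chosen with earlier results of these data known. Alternatives were floors at the 20th and 60th percentiles or none, quantile normalization, the mean of a gene's probe sets and its dimmest readable one.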

Additional observations from a re-analysis of the deposited data

How the results depend on the processing

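No paired analysis was possible because each population has 1 array. Each member difference of 2-fold or more was recomputed under 6 alternatives, giving 138 values over the 6 comparisons: 127 stayed at 2-fold or more with the same sign, 11 fell under it and 0 changed sign. The 11 values were all of Irf4 (floor at the 60th percentile, or the mean of both probe sets) or of Irf5 (its dimmer probe set). Much of the stability was fixed in advance. Irf1, Irf2, Irf7 and Irf9 have 1 probe set each and read above every floor, so only quantile normalization could change their values. Irf8 also read above every floor, so no floor setting could change its values. The 2 Irf4 differences KI/KI minus GFP-high and granulocytes minus GFP-high rose above 2-fold with the floor at the 20th percentile and with none. Members at least 2-fold apart between KI/KI and GFP-low monocytes numbered 2, but 1 with the floor at the 60th percentile and 1 with the mean over all probe sets, in both cases through Irf4. Other counts moved too. With either of these settings or the dimmest readable probe set, GFP-high minus GFP-low went from 6 to 5 and granulocytes minus GFP-low from 3 to 2. Over all settings, granulocytes minus GFP-high ran from 4 to 6 and KI/KI minus GFP-high from 2 to 4. Granulocytes minus KI/KI fell from 4 to 3 with the dimmest readable probe set. Under quantile normalization each count was the same. Signal over background limits Irf4 most. Why the probe sets of Irf5 differ was not tested.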

Other observations

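Some genes of the lists went against the members, and these were chosen after their values were seen. Ikbke, a kinase gene that acts on Irf3 and Irf7, read 9.03 in GFP-high Gr1-low cells, 8.66 in KI/KI and 7.89 in GFP-low monocytes and 6.70 in granulocytes, so its highest reading was on the array where Irf7 was lowest. Ddx60, an interferon-stimulated helicase gene, read 9.50 in granulocytes, 6.18 in GFP-high cells, 5.58 in GFP-low monocytes and 4.24, below the floor, in KI/KI monocytes. Ifit2, an antiviral gene, stood at 7.79 in GFP-high cells against 8.25 in GFP-low monocytes, while the related Ifit3 stood at 5.91 against 9.28. Egr1, an immediate early factor counted with the monocyte genes, read 11.65 in granulocytes, 9.92 in GFP-high cells, 8.25 in GFP-low and 7.71 in KI/KI monocytes, the reverse of the Irf8 division. Ets2, an ETS factor, read 11.10, 9.34, 8.09 and 7.03 in the same order.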
